A study of Mus musculus with 10 samples.

Results

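The genes described here are 8 genes of cholesterol synthesis and its control by SREBP2, namely *Hmgcs1*, *Idi1*, *Fdft1*, *Sqle*, *Lss*, *Cyp51*, *Srebf2* and *Insig1*, in RNA-seq of mouse proximal intestine. They were taken by symbol from a given list, and they are 8 of the 35275 gene IDs counted and 8 of the 15610 genes with enough counts to be tested. The 10 libraries come from 5 WT mice and 5 *Zip14* (*Slc39a14*) knockout (KO) mice, with 1 library per mouse, made from whole intestinal tissue. *Zip14* encodes a zinc transporter. Mice were 8 to 10 weeks old per the labels, and a wider age range stands in the paper. The paper describes KO mice without *Zip14* in the whole body and WT controls of their strain, both bred from heterozygous parents, whereas an enterocyte deletion is named in the title of the series and only a knockout in the labels. Which of these deletions the mice carried cannot be read from the counts. *Slc39a14* fell from 260.4 ± 62.5 to 102 ± 32.9 counts scaled to library size (CPM, mean ± SD, n = 5 per group), and the highest KO library, replicate 1, held 160.1 CPM, below the lowest WT library at 191.

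Cells make cholesterol from acetyl-CoA through mevalonate, farnesyl diphosphate, squalene and lanosterol. SREBP2, the product of *Srebf2*, is a transcription factor held in the endoplasmic reticulum by the proteins SCAP and INSIG while sterols are plentiful. When sterols are scarce it is released, cleaved and carried to the nucleus, where it turns on the genes of this pathway. The small intestine is a site of both cholesterol synthesis and cholesterol absorption.

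Of the 8 genes, 7 rose in KO mice and *Insig1* did not pass the test. The 6 enzymes rose between 2.08-fold (*Lss*) and 4.07-fold (*Fdft1*), and *Srebf2* rose 1.87-fold. In all 7, every KO library lay above every WT library. Over all 15610 genes tested, 29.9% were called in either direction, 16.0% were called higher in KO mice and 10.2% had every KO library above every WT library. Summed over the 8 genes, the level was 483 to 587 CPM in WT libraries and 873 to 1685 CPM in KO libraries. Calls are from the quasi-likelihood test of edgeR. Counts were first normalized by TMM, which scales libraries to a shared level for most genes, and p-values were adjusted by Benjamini-Hochberg over all genes tested, with a threshold of 0.05. The median log2 fold change of the 8 genes was 1.37, beside 0.03 over all genes tested. With scaling to library size only, that median over all genes was 0.15, the share of calls that were higher in KO mice was 69.4% in place of 53.5%, and the same count of 7 of the 8 genes was called.

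*Hmgcs1* encodes the cytosolic HMG-CoA synthase, which makes HMG-CoA on the way to mevalonate. It lies on chr13:119690379-119708260 (GRCm38, plus strand). Its WT libraries held 147, 128, 118, 125 and 155 CPM in replicates 1 to 5, and its KO libraries held 255, 464, 500.2, 363 and 429 CPM. The lowest KO library was replicate 1, and it still lay well above the highest WT library. The mean rose from 135 ± 15.65 to 402 ± 96.45 CPM, a log2 fold change of 1.58 (SE 0.174, adjusted p = 0.000286, edgeR).

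*Idi1* encodes the isomerase that turns isopentenyl diphosphate into dimethylallyl diphosphate, and lies on chr13:8885501-8892451 (plus strand). WT libraries held 20.1, 18.95, 21.0, 18.85 and 22.1 CPM and KO libraries 33.2, 53.9, 55.4, 29.4 and 53.7 CPM. Here the lowest KO library was replicate 4 rather than replicate 1. The log2 fold change was 1.16 (SE 0.182, adjusted p = 0.00157, edgeR).

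*Fdft1* encodes squalene synthase, the first enzyme that serves sterols alone, and lies on chr14:63145150-63179578 (minus strand). WT libraries held 31.6, 31.3, 32.7, 32.0 and 42.0 CPM and KO libraries 76.8, 145, 162, 149 and 158 CPM. Apart from replicate 5 the WT libraries were nearly equal, and apart from replicate 1 so were the KO libraries. With a log2 fold change of 2.03 (SE 0.191, adjusted p = 0.000139, edgeR) it had the highest value of the 8 genes. *Fdft1* lies 7.12 Mb from *Slc39a14* on the same chromosome, and its exons overlap those of *Ctsb* on the other strand, whose level was 644 CPM in WT and 579 CPM in KO mice (log2 fold change -0.16, adjusted p = 0.383, edgeR). The part of either in the *Fdft1* value was not tested.

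*Sqle* encodes squalene epoxidase, a flux-controlling enzyme of the sterol branch, and lies on chr15:59315077-59331192 (plus strand). WT libraries held 42.1, 43.5, 40.1, 42.8 and 52.8 CPM and KO libraries 109, 183, 205.5, 133 and 213.5 CPM. The lowest KO library lay far above the highest WT library. The mean rose from 44.3 ± 4.95 to 169 ± 46.1 CPM, a log2 fold change of 1.93 (SE 0.185, adjusted p = 0.000152, edgeR).

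*Lss* encodes lanosterol synthase, which closes the sterol rings, and lies on chr10:76531588-76557138 (plus strand). WT libraries held 22.1, 20.9, 23.6, 26.05 and 29.2 CPM and KO libraries 33.7, 63.9, 67.2, 38.6 and 50.1 CPM. The gap between the groups was narrow, between WT replicate 5 and KO replicate 1. Its log2 fold change was 1.06 (SE 0.193, adjusted p = 0.00318, edgeR), the lowest of the 6 enzymes.

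*Cyp51* encodes lanosterol 14-alpha-demethylase and lies on chr5:4081145-4104746 (minus strand). WT libraries held 46.7, 45.4, 34.8, 38.8 and 54.3 CPM and KO libraries 82.3, 186, 229, 183 and 190.1 CPM. KO replicate 1 stood apart from the other KO libraries, as it did for *Fdft1*. The log2 fold change was 1.98 (SE 0.239, adjusted p = 0.000425, edgeR). Exons of *Akap9* overlap those of *Cyp51*, and *Akap9* held 164 CPM in WT and 122 CPM in KO mice (log2 fold change -0.43, adjusted p = 0.105, edgeR). How the authors' counter treated strand is not given in the sources used here, so reads from a shared exon may have been counted for either gene.

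*Srebf2*, on chr15:82147181-82205379 (plus strand), was the steadiest of the 8 genes within groups. Its WT libraries held 135.5, 128, 129, 129.5 and 147 CPM and its KO libraries 197, 278, 270.5, 237 and 270.2 CPM. The coefficient of variation (SD as a percentage of the mean) was 5.97% in WT and 13.4% in KO mice, the lowest of the 8 genes in both groups. The mean rose from 134 ± 7.99 to 251 ± 33.6 CPM, a log2 fold change of 0.90 (SE 0.108, adjusted p = 0.000413, edgeR).

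*Insig1* encodes a protein that retains the SCAP and SREBP complex and is itself a target of SREBP2. It lies on chr5:28071363-28078662 (plus strand). WT libraries held 87.8, 94.15, 119, 69.85 and 84.4 CPM and KO libraries 85.3, 150.4, 196, 103 and 108 CPM. The groups overlapped, with KO replicates 1, 4 and 5 within the WT range and replicates 2 and 3 above it. The log2 fold change was 0.50 (SE 0.221, adjusted p = 0.107, edgeR), and the exact permutation test on log2 CPM (two-sided, n = 5 per group) gave p = 0.111. *Insig1* passed the test when KO replicate 1 was left out, at a log2 fold change of 0.61 (adjusted p = 0.0425, edgeR), and over all alternatives the adjusted p was between 0.0416 and 0.61. For each of the other 7 genes the exact permutation test gave p = 0.00794, the smallest that 5 against 5 libraries allow. Groups that do not overlap always give this p, and 21.1% of all genes tested had such groups.

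**Figure D1:**
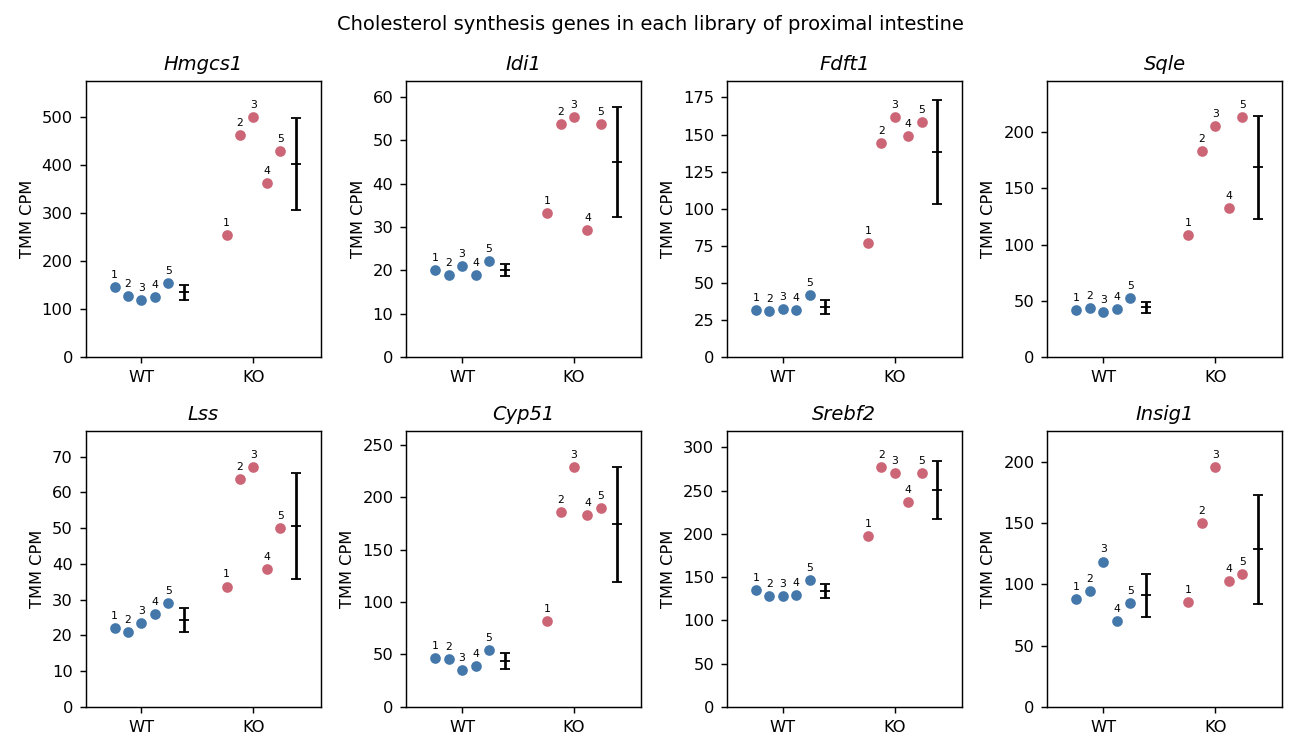
Level of each of the 8 genes in TMM CPM (vertical axes, each from 0) in the 5 WT and 5 KO libraries; points are libraries and bars are the mean and SD. For 7 genes every KO point lies above every WT point, and for *Insig1* the groups overlap.

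All 7 calls are limited by other differences between the groups. Ileal markers summed to at most 2.86 CPM in WT libraries and to at least 2548 CPM in KO libraries, so that genotype and the gut segment sampled cannot be told apart. Smooth muscle markers rose with the KO genotype, 9 of 10 called higher beside 16.0% of all genes tested. Their summed level was 1629 to 2674 CPM in WT against 3600 to 10600 CPM in KO libraries, with no overlap. In an edgeR fit with the mean of these markers as a covariate the log2 fold changes of the 7 genes stayed between 0.89 (*Srebf2*) and 2.0 (*Sqle*), but none of the 7 passed the test (adjusted p between 0.0748 and 0.247), and 17 of all genes did, none of them among the further synthesis, sterol control, fatty acid and liver X receptor genes described below. Since the marker levels of the groups do not overlap, genotype and smooth muscle content cannot be told apart.

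Sequence upstream of these genes was read from the RefSeq promoter table (GRCm38.p6), which covers 250 bases before to 50 bases after each gene's start and holds 6 of the 8 genes, without *Sqle* and *Fdft1*. SREBP binds sterol regulatory elements, usually beside sites of the factor NF-Y, which binds CCAAT. A letter match to the motif TCACNCCAC, searched on both strands, was found in *Hmgcs1* alone of the 6 genes, and in 1.44% of all 27025 genes of the table. CCAAT on either strand was found in 6 of 6 genes and in 41.1% of all genes, while TCACGTGA, to which SREBP can also bind, was found in 0 of 6 and in 1.12% of all genes. The windows below are shown because they hold those matches. They are written 5′ to 3′ along the gene's strand, with the matching letters in capitals, and ATTGG is CCAAT read from the other strand.
Hmgcs1, TCACNCCAC, chr13:119690204-119690233, plus strand: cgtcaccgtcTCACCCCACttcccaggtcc
Hmgcs1, CCAAT, chr13:119690294-119690323, plus strand: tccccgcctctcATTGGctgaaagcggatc
Idi1, CCAAT, chr13:8885549-8885578, plus strand: tgcctccagctgATTGGcgagcccgggcat
Lss, CCAAT, chr10:76531531-76531560, plus strand: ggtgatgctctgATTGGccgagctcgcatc
Cyp51, CCAAT, chr5:4104709-4104738, minus strand: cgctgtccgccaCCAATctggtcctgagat
Srebf2, CCAAT, chr15:82147122-82147151, plus strand: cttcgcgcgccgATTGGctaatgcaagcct
Insig1, CCAAT, chr5:28071184-28071213, plus strand: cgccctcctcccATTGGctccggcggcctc

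The *Hmgcs1* TCACNCCAC match began 137 bases before the RefSeq start, and the CCAAT match printed for it 45 bases before that start. In the other genes the printed CCAAT match began 45 (*Idi1*), 62 (*Lss*), 29 (*Cyp51*), 135 (*Srebf2*) and 216 (*Insig1*) bases before the start. The *Idi1* and *Cyp51* windows overlap an exon of those genes in GENCODE M21, whose starts lie further upstream, and the others lie outside annotated exons of their gene. *Insig1*, the gene that did not pass the test, thus holds CCAAT as do the 5 of these genes that rose. A match of letters is a description and not a measured binding site.

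Compared per kilobase of annotated exon, the 8 genes differed widely in level in WT mice. *Hmgcs1* (29.4 ± 3.41 CPM per kb) and *Insig1* (29.4 ± 5.77) were the most abundant and overlapped each other, followed by *Srebf2* (18.6 ± 1.11), which was separate from its neighbours in the order. *Cyp51* (9.97 ± 1.71), *Fdft1* (8.02 ± 1.08) and *Sqle* (7.98 ± 0.893) overlapped, and *Idi1* (5.77 ± 0.398) and *Lss* (2.26 ± 0.309) lay below them and apart from each other. In KO mice *Hmgcs1* again had the highest mean (87.5 ± 21.0 CPM per kb) and *Lss* the lowest (4.70 ± 1.38). The means of *Insig1* (41.6), *Cyp51* (39.4), *Srebf2* (34.9), *Fdft1* (32.7) and *Sqle* (30.4) lay closer together in KO than in WT mice. These lengths are of all exons annotated for a gene, whichever transcripts the tissue uses.

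The 8 genes also varied together around their group means when the libraries of both genotypes were pooled. After each group's mean was subtracted, Pearson's r of log2 CPM over the 10 libraries was above 0 for all 28 pairs of genes, with a median of 0.83 and a range of 0.49 to 0.97. *Hmgcs1* and *Srebf2* formed the pair with the highest value. Pairs with *Insig1* had a median r of 0.56, and the 21 pairs without it 0.85. Set beside this, the median r of these genes with every other gene tested was 0.008, and 0.761% of those 124816 pairs were above 0.8, as were 15 of the 28 pairs. Spearman's rho had a median of 0.74. All pairs share the same 10 libraries, so these values are a description and carry no p. Each of the 8 genes varied more in KO mice (*Hmgcs1*, coefficient of variation 24% against 11.6% in WT), so KO libraries weigh more. In WT replicate 5 *Insig1* lay below its group mean (-0.09) and every other gene above its own. In WT replicate 4 *Insig1* (-0.36) lay below with every other gene except *Lss*. No r was computed within 1 genotype.

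A single mouse weighed on these values. KO replicate 1 was the lowest KO library for 7 of the 8 genes, with a mean deviation of -0.60 log2 units from the KO mean, and KO replicate 3 was the highest for 6 (mean deviation 0.38). In WT mice replicate 5 was the highest for 7 genes (mean deviation 0.20). Without KO replicate 1 the median r of the 28 pairs was 0.61, and without KO replicates 1 and 3, the libraries farthest from the median, 0.59. KO replicate 1 stood apart in other genes too. It had the highest *Slc39a14* of the KO libraries, and *Gata4*, a transcription factor of the proximal small intestine, was at 59.4 CPM there against 0.572 to 13.8 CPM in the other KO libraries and 160.3 to 217 CPM in WT libraries. The part of these in its lower cholesterol synthesis genes was not tested.

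**Figure D2:**
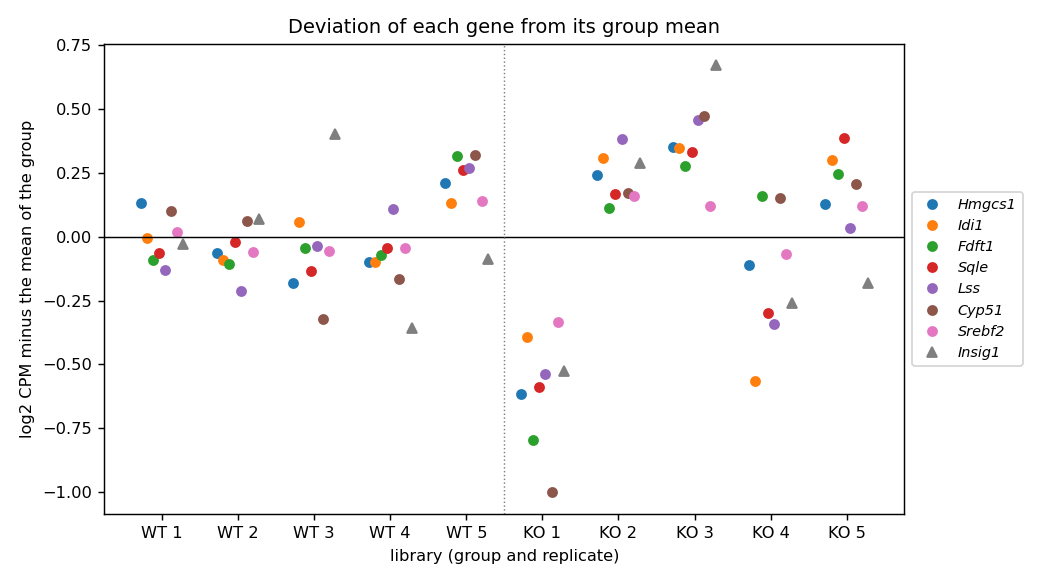
Deviation of each of the 8 genes from the mean of its group in log2 CPM (vertical axis) in each library (horizontal axis, WT left and KO right); each point is 1 gene. All 8 genes lie below 0 in KO replicate 1 and above 0 in KO replicates 2 and 3, while *Insig1* (triangles) lies outside the range of the other 7 genes in WT replicates 2, 3, 4 and 5 and KO replicates 3 and 5.

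Among the 10 other genes whose deviations were most like the mean deviation of the 8 genes, of 15602 ranked, were *Gm12359*, *Capg*, *Fdps*, *Zfp39*, *Mvd*, *Lrp8*, *Itgb6*, *Chrm4* and *Klk1*, with r between 0.91 and 0.96 over the 10 libraries. *Fdps* and *Mvd* are enzymes of the same pathway. *Gm12359* and *Chrm4* were at or below 1 CPM in WT mice, where counting error is high. Among the 100 nearest genes were 6 of the 13 other synthesis enzymes. KO replicate 1 weighs on this ranking as it does on the pairs.

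The rest of the pathway was read from a list of 13 further enzymes. Of these, 11 rose in KO mice, none fell, and *Lbr* and *Sc5d* did not pass the test. Of all genes tested 16.0% were called higher. Their median log2 fold change was 1.004. Together with the 6 enzymes above, 17 of 19 pathway enzymes were called higher, and the median was 1.37. Every KO library lay above every WT library in the same number, and in 10.2% of all genes tested. *Insig1* and *Srebf2* are not enzymes and stand outside that count.

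At the start of the pathway, *Acat2* (acetoacetyl-CoA thiolase) rose by a log2 fold change of 0.85, from 24.9 ± 2.23 to 44.9 ± 10.7 CPM (adjusted p = 0.0034, edgeR). *Hmgcs1*, which acts next, had the higher value of 1.58. The kinases *Mvk* (1.47) and *Pmvk* (1.51) and the decarboxylase *Mvd* (1.90, from 16.0 ± 2.30 to 59.6 ± 15.8 CPM) rose, as did *Fdps* (1.71), which makes the farnesyl diphosphate that *Fdft1* uses.

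After lanosterol the values were more varied. *Tm7sf2* and *Lbr* both encode sterol 14-reductases. *Tm7sf2* rose by 1.70, whereas *Lbr*, which also anchors chromatin at the nuclear envelope, had a log2 fold change of 0.11 (adjusted p = 0.419, edgeR). The C4-demethylation enzymes *Msmo1* (1.37), *Nsdhl* (1.004) and *Hsd17b7* (0.75) rose. Of the last steps, *Dhcr7* (0.35) and *Ebp* (0.26, adjusted p = 0.049, edgeR) passed the test by little, while *Sc5d* (0.37, adjusted p = 0.0651, edgeR) did not pass. Calls of *Ebp* and *Dhcr7* were lost in 8 and 3 of the 10 fits that each leave out 1 library. They were also lost in 7 (*Ebp*) and 4 (*Dhcr7*) of the 8 other alternatives.

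**Figure D3:**
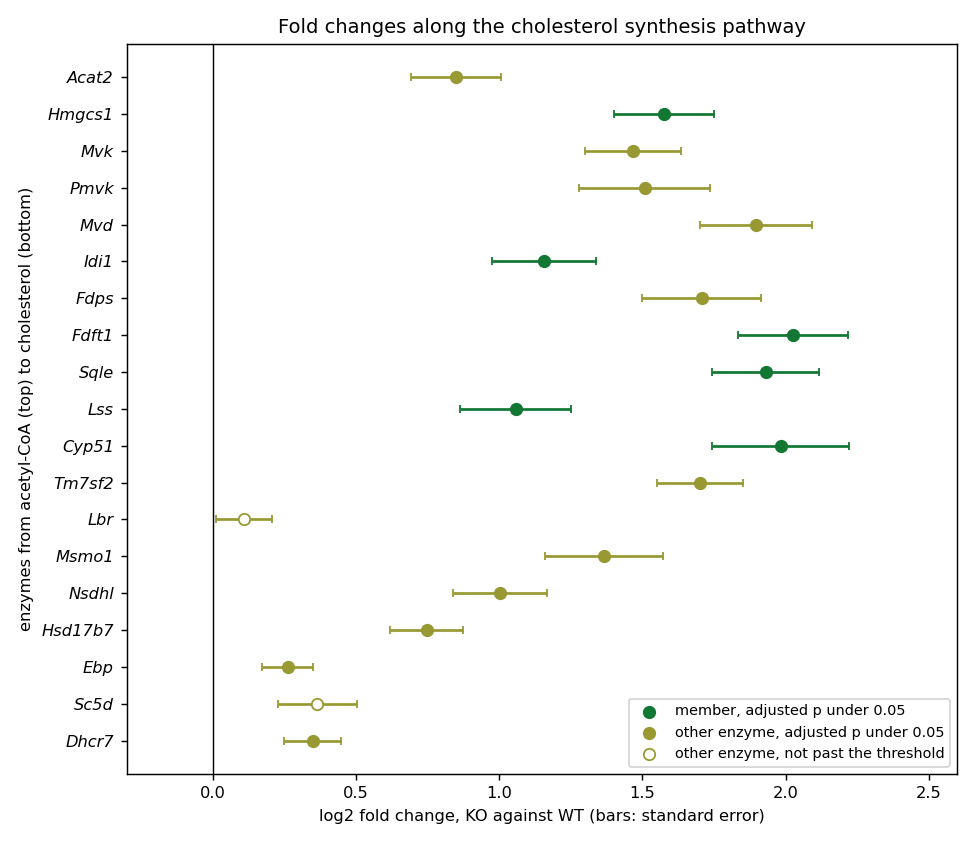
Log2 fold change of KO against WT with its standard error (horizontal axis) for 19 enzymes in pathway order (vertical axis), with the 6 of the 8 genes in dark green and open circles for enzymes that did not pass the test. *Fdft1*, *Cyp51*, *Sqle* and *Mvd* lie near 2, and *Lbr*, *Ebp*, *Dhcr7* and *Sc5d* lie below 0.4.

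The genes that sense, retain, take up or move sterols did not share 1 direction. Of 10 genes in this list, 3 rose, 1 fell and 6 did not pass the test, so that 4 of 10 were called beside 29.9% of all genes tested, which is no result about the list. *Insig2* had the highest value of these 10, rising from 33.9 ± 4.77 to 70.3 ± 15.4 CPM (log2 fold change 1.05, adjusted p = 0.00108, edgeR), with no overlap. *Insig2*, the close relative of *Insig1* with the same retaining role, thus passed the test where *Insig1* did not, and the difference between them was not tested.

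*Npc2*, which carries cholesterol within lysosomes, rose by a log2 fold change of 0.42 and *Scap* by 0.26, and the *Scap* call was lost in 7 of the 10 fits that leave out 1 library. *Srebf1*, which encodes the related factor that drives fatty acid synthesis, had a log2 fold change of -0.19 (adjusted p = 0.175, edgeR). The proteases that cleave SREBP, *Mbtps1* (0.04) and *Mbtps2* (0.09), the sterol carriers *Stard4* (0.29) and *Npc1* (0.02), and *Lpin1* (0.67) did not pass the test either.

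*Npc1l1*, the transporter through which enterocytes take up dietary cholesterol, was the 1 gene of this list that fell. It held 1912, 1333, 1313, 1639 and 1839 CPM in WT libraries and 1402, 644, 585, 457 and 697 CPM in KO libraries. KO replicate 1 lay within the WT range and the other KO libraries lay below it. The log2 fold change was -1.09 (SE 0.279, adjusted p = 0.015, edgeR), and over all alternatives it stayed below 0. The call was lost with the smooth muscle covariate, where the log2 fold change was -0.38 (adjusted p = 0.753, edgeR), and without the 3 libraries with the most adipocyte RNA.

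A list of the liver X receptors, which respond to sterol excess, and 6 of their targets, several of which lead sterols out of the cell, went both ways. The receptor gene *Nr1h3* fell by 0.50 on the log2 scale, and *Nr1h2* had a log2 fold change of -0.07 and did not pass the test. Of 8 genes in this list 4 fell (13.9% of all genes tested were called lower) and 2 rose (16.0% were called higher). *Abcg5* and *Abcg8*, whose products form the transporter that returns sterols to the gut lumen, fell by 1.06 and by 1.02 on the log2 scale, *Abcg5* from 305.5 ± 16.6 to 147 ± 55.7 CPM (adjusted p = 0.00572, edgeR). Exons of this pair overlap in the annotation. *Abca1*, which exports cholesterol to HDL, fell by 1.69, from 98.3 ± 45.7 to 30.5 ± 17.5 CPM. *Mylip*, which encodes a ubiquitin ligase, rose by 1.46 and *Abcg1*, a sterol exporter, by 0.90. The call of *Abcg1* was lost without WT replicate 1 or 2, and without the 3 libraries with the most adipocyte RNA those of *Abcg1*, *Abca1* and *Nr1h3* were lost.

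**Figure D4:**
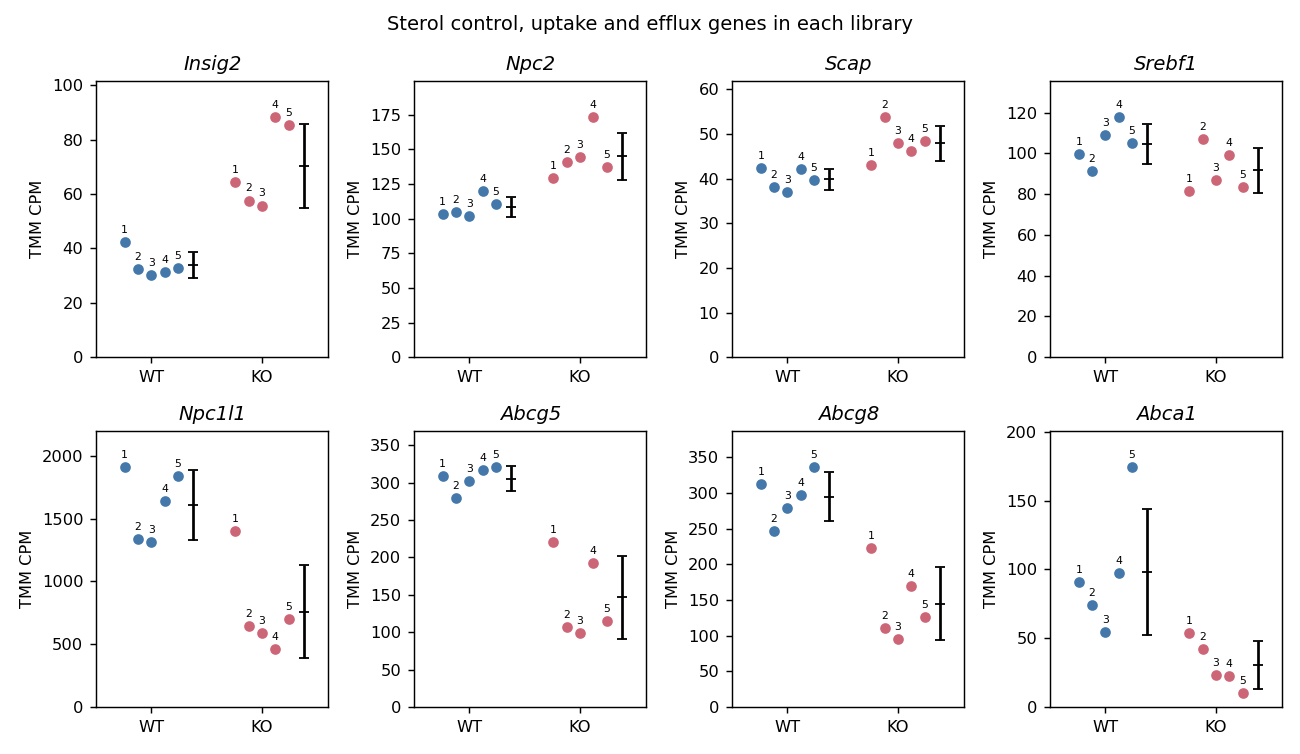
TMM CPM (vertical axes, each from 0) of 8 genes of sterol control, uptake and efflux in the 5 WT and 5 KO libraries; points are libraries and bars are the mean and SD. *Insig2*, *Npc2* and *Scap* are higher in every KO library, *Abcg5*, *Abcg8* and *Abca1* are lower in every KO library, and *Npc1l1* and *Srebf1* overlap.

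In the fatty acid list, 8 of 12 genes were called higher and 1 lower, beside 16.0% and 13.9% of all genes tested. In 3 of the 12 every KO library lay above every WT library, as in 10.2% of all genes tested. *Scd2*, a stearoyl-CoA desaturase, rose from 52.3 ± 11.2 to 551 ± 221 CPM (log2 fold change 3.40, adjusted p = 0.000126, edgeR), and every KO library lay above every WT library. *Scd1* (2.58) and *Pnpla3* (2.56) had the next highest values and overlapped between groups, and with the smooth muscle covariate they were at -0.01 and -0.03, where *Scd2* was at 3.11, none of them called. *Elovl6*, a fatty acid elongase, fell by 0.50. The count of 8 was 3 without WT replicate 1, 2, 3 or 5, 4 without KO replicate 3, and 5 without KO replicate 2 or 4. Libraries also differed in adipocyte RNA, with *Adipoq* at 26.5 CPM in WT replicate 4, 88.1 in KO replicate 2 and 120.1 in KO replicate 4. KO replicate 3 was close to the first of these at 26.2 CPM, and *Plin1* and *Lep* had the same order of these 4 libraries. *Cidec*, the other gene of this list of 4, did not follow them, at 78.5 CPM in WT replicate 4 against 78.3 to 135 CPM over the WT libraries (log2 fold change -0.67, adjusted p = 0.204, edgeR). The summed level of the 4 genes was 83.9 to 145.5 CPM in WT and 46.5 to 319.9 CPM in KO libraries, and 2 of 4 rose. Without WT replicate 4 and KO replicates 2 and 4 4 fatty acid genes were called higher, while 7 of the 8 cholesterol genes were still called.

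Bulk tissue holds many cell types, and fewer cells of a type cannot be told apart from less RNA per cell. The 9 epithelial markers, which mark the cells that line the gut, did not all rise. Of these, 6 rose, among them *Epcam*, *Krt8* and *Krt19*, beside 16.0% of all genes tested called higher. The other 3 did not pass the test, namely *Cdh1* (log2 fold change 0.19), *Krt20* (-0.35) and *Vil1* (-0.49). For *Krt20* and *Vil1* 4 of 5 KO libraries lay below all WT libraries. The summed level of all 9 was 11650 to 13550 CPM in WT and 13570 to 19670 CPM in KO libraries. Their mean log2 CPM was 9.83 in WT and 10.26 in KO mice. When this mean was subtracted from each gene in each library, *Fdft1* (1.55), *Cyp51* (1.49), *Sqle* (1.46), *Hmgcs1* (1.12), *Idi1* (0.68) and *Srebf2* (0.47) were still higher in every KO library than in every WT library, as log2 differences of the means (exact permutation test, two-sided, p = 0.00794 each). By this measure 1.90% of all genes tested were higher in every KO library. *Lss* differed by 0.58 (exact p = 0.0238), with 4 of 5 KO libraries above all WT libraries, and without WT replicate 1, 2 or 4 its exact p was 0.0635. *Insig1* differed by 0.03 (exact p = 0.937). With the mean of 10 crypt and cell cycle markers as the reference *Insig1* differed by 0.60. Every other gene also had a larger difference with that reference than with the epithelial markers. Over all alternatives the exact p of *Insig1* was at least 0.0714.

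**Figure D5:**
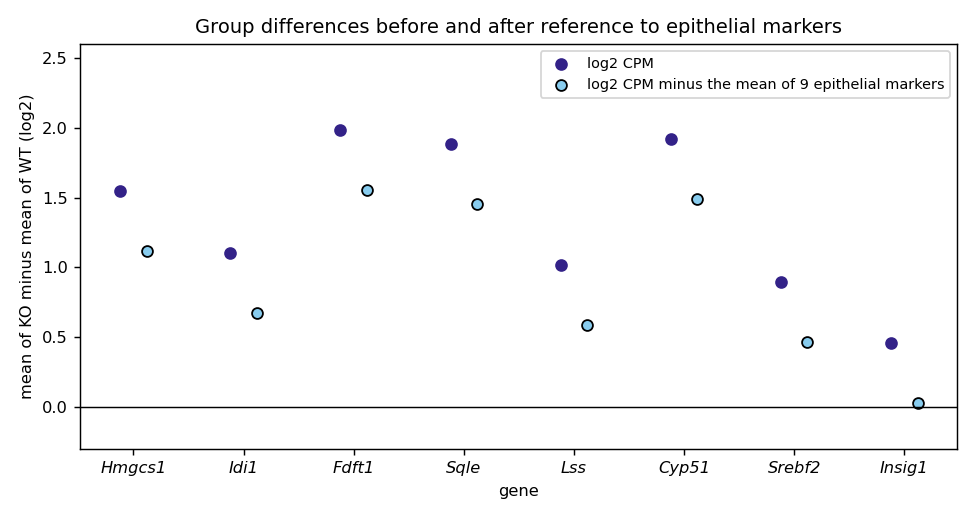
Difference between the KO and WT means (vertical axis, log2) for each of the 8 genes, for log2 CPM (dark points) and for log2 CPM minus the mean of 9 epithelial markers (light points). All light points lie lower by the same amount, 0.43, and that of *Insig1* lies near 0.

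Most markers of mature enterocytes fell. Of 10 such genes 7 were called lower, beside 13.9% of all genes tested, and 3 did not pass the test. The summed level of the 10 was 29400 to 44280 CPM in WT and 10370 to 25140 CPM in KO libraries. Of 10 crypt and cell cycle markers, 1 (*Ascl2*) rose, beside 16.0% of all genes tested called higher. The summed level of these 10 was 953 to 1107 CPM in WT and 501 to 1076 CPM in KO libraries. All 6 neural markers rose, beside the same 16.0% of all genes tested. Immune markers summed to 243 to 321 CPM in WT and 209 to 435 CPM in KO libraries, and those of pancreas and liver to at most 4.98 CPM in any library.

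The labelled tissue was checked with markers of gut position. The ileal markers *Fabp6*, *Slc10a2* and *Fgf15* summed to 0.766 to 2.86 CPM in WT libraries and to 2548 to 9277 CPM in KO libraries, and all 3 rose. *Gata4* fell from 189 ± 24.4 to 16.1 ± 24.8 CPM, although *Slc40a1* and *Cybrd1*, the other markers of the proximal list, did not pass the test. Every KO library thus carried the ileal markers that WT libraries nearly lacked.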

How the data were processed

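RNA-seq counts from proximal intestine of 5 WT and 5 KO mice were reanalysed, with groups taken from the genotype labels. For each mouse the authors deposited 1 file of raw, not normalized counts by Ensembl gene ID. The labels name a SMARTer mRNA-Seq kit. The submitters' processing notes list FastQC 0.11.9, Trimmomatic, HISAT2 2.0.4, SAMtools 1.3.1 and DESeq2 1.14.1 and the build GRCm38, while the counter, the annotation and the use of strand were not given in the sources used here. Totals were 16729787 to 20819678 counts per library in WT and 17118742 to 19414828 in KO mice. No libraries of a group were alike within sampling noise.

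Gene IDs were named by GENCODE M21 (GRCm38), which matched 34490 of 35275. R 4.3.3 was used with edgeR 4.0.16 (filterByExpr with a minimum count of 10 and a minimum total of 15, TMM, glmQLFTest, Benjamini-Hochberg adjustment), limma 3.58.1 and DESeq2 1.42.0, tested on simulated data. Log2 CPM used a prior count of 2. Single values were compared by exact permutation of the 10 libraries. The 8 genes and all lists were chosen with earlier results of these data known, and no list was tested as a set. Some genes are not reported here and were left out of the lists and their counts. All 8 genes and the remaining synthesis and sterol control genes are named, with at most the 3 highest and 3 lowest called genes of the fatty acid and liver X receptor lists, the 3 most abundant and the called genes of marker lists, and genes among the 10 most like the 8 in their deviations. *Nr1h2*, *Nr1h3*, *Cdh1* and the overlapping *Ctsb* and *Akap9* were named after their values were seen, as were *Acaca*, *Fasn*, *Fads1*, *Me1*, *Acss2* and *Lpcat3*, which changed sign under an alternative. Alternatives were DESeq2, RLE normalization, scaling by library size, a filter at a mean count of 10 or none, a smooth muscle covariate, a block by replicate number, other prior counts and references, and leaving out each library.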

Additional observations from a re-analysis of the deposited data

Results flagged for a closer look

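Within groups of 5, 8 values lay far from the others by Dixon's criterion at 95% on log2 CPM, among 104 groups of 52 genes, where chance gives about 1 in 20, or 5.2. Of the cholesterol genes, *Fdft1* was at 42.0 CPM in WT replicate 5 against 31.3 to 32.7 in the other WT libraries, and at 76.8 CPM in KO replicate 1 against 145 to 162 in the other KO libraries. *Cyp51* was at 82.3 CPM in KO replicate 1 against 183 to 229. *Slc39a14* was at 160.1 CPM in the same library against 78.5 to 93.8 in the other KO libraries. *Pmvk* was at 17.4 CPM in WT replicate 4, *Insig2* at 42.2 CPM in WT replicate 1, *Mbtps1* at 84.2 CPM in KO replicate 4 and *Mylip* at 16.2 CPM in KO replicate 5, each apart from the rest of its group.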

How the results depend on the processing

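Leaving out 1 library at a time gave 3207 to 5507 genes called, 7 to 8 of the 8 cholesterol genes, 9 to 11 other synthesis enzymes, 2 to 4 sterol control genes higher, 3 to 8 fatty acid genes higher, and of the liver X receptor list 1 to 2 higher and 4 to 5 lower. The *Insig1* log2 fold change was 0.29 to 0.61, and relative to epithelial markers *Lss* was 0.47 to 0.72 and *Insig1* -0.14 to 0.17. The median r of the 28 pairs was 0.61 to 0.91, *Npc1* -0.059 to 0.12 and *Fads1* -0.074 to 0.12.

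With the smooth muscle covariate 17 genes were called in all, 0 of the 8 cholesterol genes, and 0 of the synthesis, sterol control, fatty acid and liver X receptor lists in either direction. *Hmgcs1* was then 1.56, *Sqle* 2.0, *Idi1* 1.495, *Fdft1* 1.65, *Lss* 1.07, *Cyp51* 1.70 and *Srebf2* 0.89, and signs turned for *Acaca* (-0.033), *Fasn* (-0.67), *Scd1* (-0.01), *Fads1* (-0.35), *Me1* (-0.27), *Acss2* (-0.23), *Pnpla3* (-0.03), *Nr1h2* (0.056) and *Lpcat3* (0.051), none called. The markers differ between the groups without overlap, so that genotype and smooth muscle content cannot be told apart in this fit. With library size only 5 sterol control genes were called higher in place of 3, no fatty acid gene (0) was called lower and *Nr1h2* was 0.056. Without the 3 libraries with the most adipocyte RNA, chosen after seeing the data, 2728 genes were called, 0 sterol control genes lower, 4 fatty acid genes higher, 1 gene of the liver X receptor list higher and 2 lower, and *Fads1* was -0.15. Without the 2 farthest libraries, also chosen after, the median r was 0.59. Causes were not tested.

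Deviations of WT and KO libraries with the same replicate number correlated at -0.17 to 0.18, the highest for replicate 4. Low values cannot tell whether mice of the same number were related, so pairing is neither shown nor excluded. With the replicate number as a block 3848 genes and 5 fatty acid genes higher were called, and *Insig1* passed the test at 0.46 (adjusted p = 0.0416, edgeR). Of 792 alternative values of 44 single genes, 648 kept their direction and side of the threshold, 110 lost and 14 gained a call with their sign unchanged, and 20 changed sign.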
